A study of Homo sapiens with 4 samples.

Results

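The mitochondrial genome transcripts are the 37 genes that the GENCODE annotation places on the mitochondrial chromosome (chromosome M, GRCh38), taken from the 60649 gene rows of the deposited count table. They are 13 protein genes, 2 ribosomal RNA genes and 22 transfer RNA genes, and all 37 had a row. The samples were RNA sequencing libraries of FaDu, an established cell line that was started from a human hypopharyngeal squamous carcinoma. They carried a construct for overexpression of TINCR with HA and FLAG tags (the TINCR-HA-FLAG group) or the empty vector, with 2 libraries per group and 4 in all. Cells of both groups were grown in the same medium with serum. The series calls its replicates technical, so each p-value measures only the spread between these libraries, and whether the line was 1 clone is not given in the sources used here.

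Mitochondrial DNA is transcribed from both strands into long precursors that run through many genes. The transfer RNAs sit between the other genes, and cutting them out of the precursor releases the ribosomal RNAs and the messenger RNAs. Most of these, but not all, then receive a short poly(A) tail. The protein genes encode core subunits of the respiratory chain, which work together with subunits made from nuclear genes. Genes that GENCODE puts on the plus strand are read from the heavy-strand promoter and those on the minus strand from the light-strand promoter. By that annotation 12 protein genes, both ribosomal RNAs and 14 transfer RNAs are heavy-strand transcripts. MT-ND6 and 8 transfer RNAs are light-strand transcripts.

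The libraries held 17069533 and 17315648 counts with the empty vector, against 18151424 and 22331602 with TINCR-HA-FLAG. TINCR had 68 and 64 counts with the empty vector, against 1921 and 2943 with TINCR-HA-FLAG, so the labels and the targeted gene go the same way. All 10 squamous epithelial markers examined had at least 10 counts in every library. Their summed level was 8389 to 9586 CPM with the empty vector, against 7214 to 8418 with TINCR-HA-FLAG. Fibroblast markers (4 of 6 with at least 10 counts in every library) summed to 41.8 to 45.9 CPM, against 50.6 to 50.9. Endothelial markers (1 of 4) summed to 9.87 to 10.7 CPM, against 12.6 to 13.8, and leukocyte markers (1 of 5) to 4.49 to 4.84, against 3.86 to 4.28. These 3 sums did not overlap between the groups, and their part in the results was not tested. Levels are given as CPM, counts scaled to a common library total after TMM normalization, and for comparisons between genes as CPM per kb of gene. A gene was called when its adjusted p was under 0.05 in the edgeR quasi-likelihood test over the 18771 genes that passed the filter on low counts. In bulk RNA, a change in the number of cells and a change in RNA per cell cannot be told apart.

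Transfer RNA genes were almost empty of counts, and the exceptions share a position. No count fell on 20 of the 22 in any library (MT-TV, MT-TL1, MT-TI, MT-TQ, MT-TM, MT-TW, MT-TA, MT-TN, MT-TC, MT-TY, MT-TS1, MT-TD, MT-TK, MT-TG, MT-TR, MT-TH, MT-TS2, MT-TL2, MT-TE and MT-TT). In these libraries 3 counts correspond to 0.135 to 0.177 CPM, the limit that a count of 0 allows for counting error only. Counts were found for MT-TP (tRNA for proline, minus strand) and MT-TF (tRNA for phenylalanine, plus strand). These are the 2 transfer RNA genes with no annotated gene on 1 side, since they flank the noncoding control region. MT-TT, the threonine tRNA gene next to MT-TP, stands for the 20 without counts. The sequences, from the GENCODE release 29 transcripts on GRCh38, are printed so that the genes with and without counts can be set side by side. They are MT-TP (chrM:15956-16023, minus strand), MT-TF (chrM:577-647, plus strand) and MT-TT (chrM:15888-15953, plus strand), with no part in capitals.
MT-TP: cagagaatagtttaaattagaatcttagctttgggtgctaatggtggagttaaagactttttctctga
MT-TF: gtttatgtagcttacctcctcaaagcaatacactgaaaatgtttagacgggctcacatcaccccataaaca
MT-TT: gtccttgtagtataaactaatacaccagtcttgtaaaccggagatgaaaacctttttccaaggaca

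The 3 sequences are of like size, 68, 71 and 66 bases, and the 22 transfer RNA genes range from 59 to 75 bases. MT-TP had 92 and 107 counts with the empty vector, against 113 and 154 with TINCR-HA-FLAG. MT-TF had 2 and 0 counts with the empty vector, against 0 and 1 with TINCR-HA-FLAG. MT-TP was thus present in every library and MT-TF only at the level of single reads. Before MT-TF lie 576 bases with no annotated gene, and no gene follows MT-TP. Among the 20 genes at 0, the widest gap to a neighbouring gene was 31 bases and the median gap was 0. In 14 of the 20, the next gene on each side lay within 5 bases or overlapped. Of the 8 light-strand transfer RNAs, 7 were at 0, and of the 14 heavy-strand ones 13 were. How reads that touch 2 genes were counted is not given in the sources used here, and its part in the zeros was not tested.

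Some protein genes overlap. The messenger RNAs of MT-ATP8 with MT-ATP6, and of MT-ND4L with MT-ND4, are each known to be a single bicistronic RNA. Their coding parts share 46 bases (chrM:8527-8572) and 7 bases (chrM:10760-10766). The shared bases are in capitals in the stretches printed here (chrM:8507-8592 and chrM:10740-10786, plus strand, GENCODE release 29), which add 20 flanking bases on either side.
MT-ATP8 and MT-ATP6: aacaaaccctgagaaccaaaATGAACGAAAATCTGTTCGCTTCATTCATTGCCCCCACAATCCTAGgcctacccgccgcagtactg
MT-ND4L and MT-ND4: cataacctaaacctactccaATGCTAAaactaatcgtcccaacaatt

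MT-ATP8 had 193 and 179.5 CPM per kb with the empty vector, against 238 and 204 with TINCR-HA-FLAG. MT-ATP6, on the same RNA, had 7506 and 6301 with the empty vector, against 9228 and 7143 with TINCR-HA-FLAG. The level of MT-ATP6 per kb was therefore 37.04 times that of MT-ATP8, and between 35.05 and 38.8 times within a library. Dividing the same counts by only the bases that lie in no other gene, 161 for MT-ATP8 and 634 for MT-ATP6, gave a ratio of 30.9. This changes the lengths and not the counts. The ratio without reads that touch shared bases was not computed. MT-ND4 stood 2.89 times above MT-ND4L per kb, and 2.84 times with unshared lengths (1371 and 290). MT-ATP6 and MT-ND4 are among the 5 highest protein genes. Shared bases are 47 of 681 in MT-ATP6 and 7 of 1378 in MT-ND4. In MT-ATP8 they are 46 of 207, and in MT-ND4L 7 of 297. The part of shared bases in the levels was not tested. The 207 bases of MT-ATP8 have the lysine tRNA gene MT-TK 1 base away on the other side. How reads over or beside the shared bases were assigned is not given in the sources used here, so MT-ATP8 and MT-ND4L are uncertain as levels.

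The protein genes took nearly all of the mitochondrial counts. They held 99.93% and 99.92% of them with the empty vector, against 99.95% and 99.91% with TINCR-HA-FLAG. In level per kb, MT-CO2, a core subunit of cytochrome c oxidase, led all others. MT-CO2 had 19277 and 17935 CPM per kb with the empty vector, against 26169 and 21974 with TINCR-HA-FLAG. Its lowest library lay above the highest library of the next gene, MT-CO1 (14158). From MT-CO1 down the order of mean levels was MT-ND4, MT-CO3, MT-ATP6, MT-ND1, MT-ND2, MT-ND5, MT-CYB, MT-ND6, MT-ND4L and MT-ND3, with MT-ATP8 last. Each neighbour from MT-CO1 to MT-ND3 overlapped the next in its range over the 4 libraries, so single steps in this part of the order were not larger than the spread. Within a library the order was steadier. Each of these steps held in all 4 libraries, except MT-ND1 over MT-ND2 and MT-ND6 over MT-ND4L, which held in 3. MT-CO2 stood 7.18 times above MT-ND3 in mean level per kb.

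**Figure D1:**
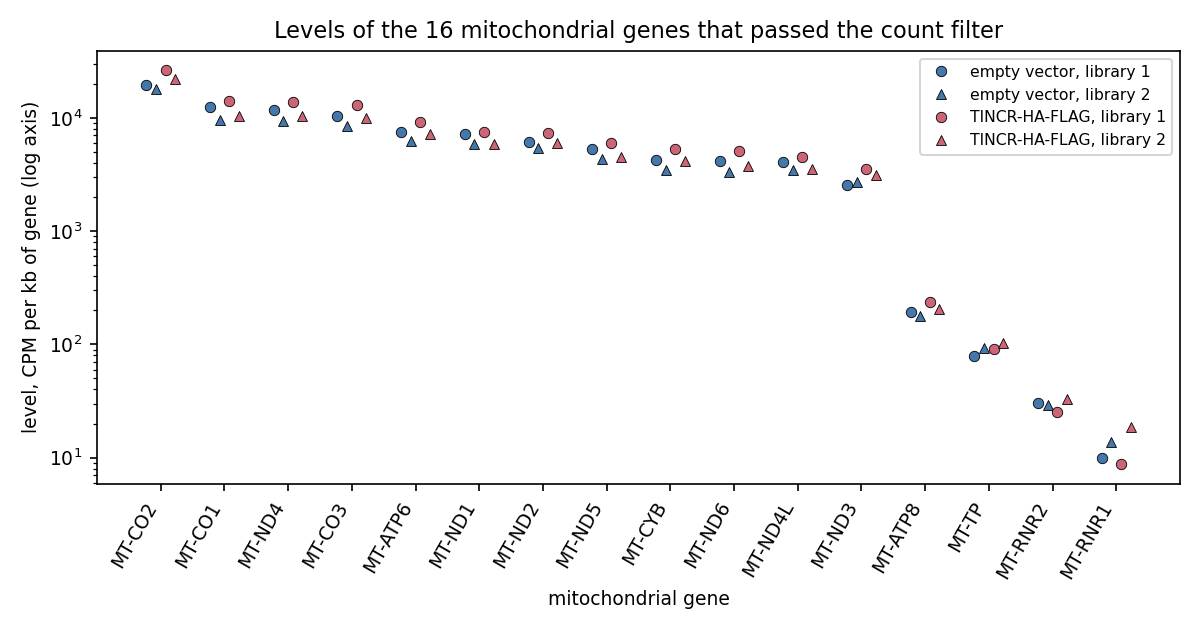
Level of each of the 16 mitochondrial genes that passed the count filter, in CPM per kb of gene on a log axis, with 1 point per library (blue, empty vector; red, TINCR-HA-FLAG; circles, library 1; triangles, library 2). MT-CO2 stands highest at 17935 to 26169, 12 protein genes lie at 2555 or above, and MT-ATP8, MT-TP and the ribosomal RNAs MT-RNR2 and MT-RNR1 lie at 238 or below.

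The ribosomal RNAs stood far below the messenger RNAs. MT-RNR2, the 16S RNA of the large mitochondrial ribosomal subunit, had 815 and 774 counts with the empty vector, against 728 and 1148 with TINCR-HA-FLAG. MT-RNR1, the 12S RNA of the small subunit, had 162 and 223 counts and then 154 and 394. Per kb this was 30.5 and 29.3 CPM against 25.4 and 33.2 for MT-RNR2, and 9.91 and 13.8 against 8.77 and 18.6 for MT-RNR1. In both genes the highest library was the second TINCR-HA-FLAG library and the lowest was the first, so the groups overlapped. The median protein gene, at 6225 CPM per kb over all libraries, stood 210.4 times above MT-RNR2 and 487 times above MT-RNR1. RN7SL1, the RNA of the signal recognition particle, which has no poly(A) tail of its own, took 1.505% to 1.87% of all counts in the same libraries. Whether ribosomal RNA was removed or poly(A) RNA selected is not given in the sources used here, and its part in the low ribosomal RNA was not tested.

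Strand could be compared in 1 messenger RNA. MT-ND6, a membrane subunit of complex I and the light-strand messenger RNA, had 4120.0 and 3328 CPM per kb with the empty vector, against 5054 and 3762 with TINCR-HA-FLAG. Its neighbours on the other strand were close. MT-CYB, the cytochrome b subunit of complex III, had 4245 and 3450.4 and then 5278 and 4146, a mean 1.05 times that of MT-ND6. MT-ND5, a proton-pumping subunit of complex I, stood 1.24 times above MT-ND6. Light-strand transcripts made up 2.31% and 2.26% of the mitochondrial counts with the empty vector, against 2.37% and 2.27% with TINCR-HA-FLAG, and the groups overlapped (difference 0.034 percentage points, exact two-sided permutation p = 0.667; 2 against 2 cannot go below 0.333). Without the first TINCR-HA-FLAG library that difference was -0.012. The end of MT-ND6 is shown for its base composition, with no part in capitals (chrM:14149-14208, minus strand, GENCODE release 29).
MT-ND6: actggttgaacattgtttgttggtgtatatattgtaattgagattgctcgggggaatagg

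Over its 525 bases MT-ND6 holds 35.6% G and 7.05% C, whereas MT-CYB on the plus strand holds 12.01% G and 34.3% C. The MT-ND5 messenger RNA is known to run on into the stretch opposite MT-ND6. The strand setting of the counting is not given in the sources used here, and without strand, reads of MT-ND6 and of RNA opposite to it cannot be told apart. The level of MT-ND6 is therefore uncertain as a measure of light-strand transcription. Whether poly(A) RNA was selected is also not given in the sources used here, and its part in the level of MT-ND6 was not tested.

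The comparison of the groups asks whether mitochondrial transcripts differ when tagged TINCR is overexpressed. Mitochondrial genes took 9.43% and 7.58% of all counts with the empty vector, against 11.4% and 8.66% with TINCR-HA-FLAG. The groups overlapped, because the second TINCR-HA-FLAG library lay below the first empty vector library. Between libraries of the same number the TINCR-HA-FLAG library lay higher each time, but the labels give the number no meaning. The mean was 8.51% ± 1.31 with the empty vector and 10.03% ± 1.94 in the other group (n = 2 per group, SD), a difference of 1.52 percentage points that was not larger than the spread between libraries (exact two-sided permutation p = 0.667). Leaving out the first TINCR-HA-FLAG library gave a difference of 0.154, and leaving out the second gave 2.90. Without the first empty vector library it was 2.45 and without the second 0.601.

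Of the 37 genes, 16 passed the filter on low counts (13 protein genes, both ribosomal RNAs and MT-TP), and the other 21 are transfer RNA genes. None of the 16 was called by edgeR fitted on group alone, against 0.549% of all genes tested. DESeq2 called none either, against 1% of all genes tested. An unadjusted p under 0.05 was reached by 1 of the 16 in edgeR, against 10.2% of all genes tested. It was reached by 2 in DESeq2, for which the share over all genes was not computed. All 13 protein genes had a positive log2 fold change, against 50.7% of all genes tested, with a median of 0.24 beside 0.004 for all genes. These 13 come from the same few precursors and the same libraries, so they are not 13 separate observations. The number positive was 9 without the second empty vector library and 8 without the first TINCR-HA-FLAG library, with medians of 0.13 and 0.06. Without the first empty vector library or the second TINCR-HA-FLAG library all 13 were positive, with medians of 0.33 and 0.39.

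Complex IV, cytochrome c oxidase, passes electrons to oxygen, and its 3 mitochondrial subunits had log2 fold changes from 0.17 to 0.37. MT-CO2 had the highest estimate of the 16 genes, with 12727 ± 649 CPM in the empty vector group and 16465 ± 2029 in the other (mean ± SD of 2 libraries each). Its log2 fold change was 0.37, with an SE of 0.20 and an edgeR adjusted p = 0.59. Both TINCR-HA-FLAG libraries lay above both empty vector libraries for MT-CO2. MT-CO1, the catalytic subunit, had 12452 and 9462 CPM per kb with the empty vector, against 14158 and 10437 with TINCR-HA-FLAG. MT-CO3 had 10349 and 8484 and then 13017.5 and 9923. In both of these genes the second TINCR-HA-FLAG library lay below the first empty vector library. The log2 fold change of MT-CO1 was -0.015 without the second empty vector library and -0.064 without the first TINCR-HA-FLAG library.

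Complex I, NADH dehydrogenase, has 7 mitochondrial subunits, with log2 fold changes from 0.05 to 0.34 and a median of 0.20. MT-ND3 had 2555 and 2702 CPM per kb with the empty vector, against 3505 and 3129 with TINCR-HA-FLAG. Its groups did not overlap, and it was the gene with the unadjusted p under 0.05 in edgeR (log2 fold change 0.34 with an SE of 0.13, edgeR unadjusted p = 0.025, adjusted p = 0.40). MT-ND1 had 7167 and 5873 CPM per kb with the empty vector, against 7557 and 5919 with TINCR-HA-FLAG, and its log2 fold change of 0.05 had an SE of 0.19 (edgeR adjusted p = 0.97). The other 5 overlapped between groups as MT-ND1 did. MT-ND4 had 11823 and 9291 and then 13869 and 10355 CPM per kb. MT-ND2 had 6062 and 5459 and then 7329 and 6048. In MT-ND2 the second TINCR-HA-FLAG library fell just short of the first empty vector library. MT-ND5 had 5335 and 4289 and then 5982 and 4524, and MT-ND4L 4091 and 3493 and then 4527 and 3562. Without the first TINCR-HA-FLAG library the log2 fold changes of MT-ND1, MT-ND4, MT-ND4L and MT-ND5 lay between -0.13 and -0.022. Those of MT-ND1, MT-ND4L and MT-ND5 were also below 0 without the second empty vector library.

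Complex III has MT-CYB as its mitochondrial subunit, whose log2 fold change of 0.29 had an SE of 0.19 (edgeR adjusted p = 0.67). Complex V, ATP synthase, has MT-ATP6, part of the proton channel, and the small subunit MT-ATP8, with log2 fold changes of 0.25 and 0.24 (adjusted p = 0.74 and 0.55 in edgeR). MT-ATP8 did not overlap between groups, although its counts were few, 686 and 630 against 907 and 936. Groups that did not overlap were thus found for 3 of the 16 genes, MT-CO2, MT-ND3 and MT-ATP8, each with TINCR-HA-FLAG higher. Among all genes tested, 39.6% did not overlap in either direction and 21.7% had TINCR-HA-FLAG higher, so 3 of 16 is no more than the background. Of the other classes, MT-RNR1 had a log2 fold change of 0.23 (SE 0.30), MT-RNR2 of -0.03 (SE 0.14) and MT-TP of 0.17 (SE 0.22), with adjusted p from 0.87 to 0.97 in edgeR. MT-RNR1 was at -0.031 without the first empty vector library and at -0.44 without the second TINCR-HA-FLAG library, and MT-RNR2 at 0.16 without the first TINCR-HA-FLAG library. At this replication the 95% intervals of the 16 genes ran from -0.44 at the lowest to 0.90 at the highest, both for MT-RNR1.

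**Figure D2:**
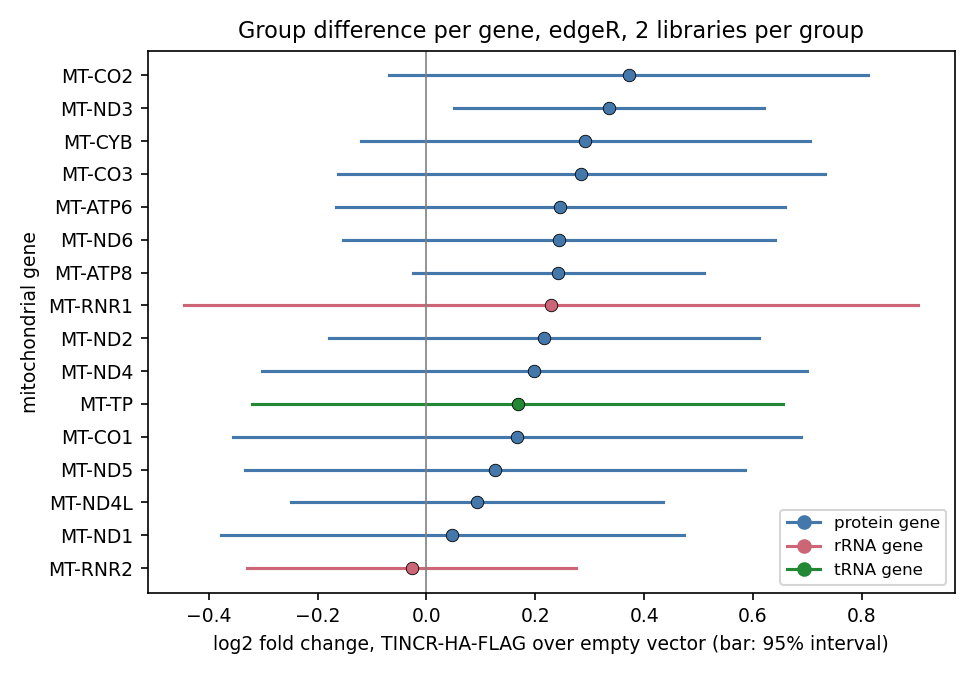
Log2 fold change of TINCR-HA-FLAG over empty vector for the 16 mitochondrial genes that passed the filter, from edgeR with 2 libraries per group. Points are estimates, bars 95% intervals and colours the RNA class. MT-ND3 is the gene whose interval excludes 0 (0.05 to 0.62), before adjustment over all genes.

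The libraries of a group differed from each other in the mitochondrial genes, and did so alike in both groups. Library 1 lay above library 2 for 12 of 13 protein genes with the empty vector and for 13 with TINCR-HA-FLAG. The median log2 ratio of library 1 over library 2 was 0.29 and 0.35. For all genes tested it was 0.003 and 0.011, and the median size of the ratio was 0.19 and 0.20. In 10 of the 13 protein genes the group difference was smaller than the larger of these 2 ratios, MT-CO2, MT-ND3 and MT-ATP8 being the others. The ratio was largest for MT-CO1, 0.40 and 0.44, and lowest for MT-ND3, -0.08 and 0.16. Across the 13 genes the ratios of the 2 groups had a Pearson correlation of 0.97, given as a description, since the genes share libraries and precursors. The ribosomal RNAs and MT-TP went the other way or were mixed. MT-RNR1 had ratios of -0.48 and -1.09, MT-TP of -0.23 and -0.18, and MT-RNR2 of 0.06 and -0.39. The labels give no batch or date for these numbers. With the number as a block, edgeR called 11 of the 16 genes, against 14% of all genes tested. That fit keeps 1 residual degree of freedom, and its limits are given in the last section.

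**Figure D3:**
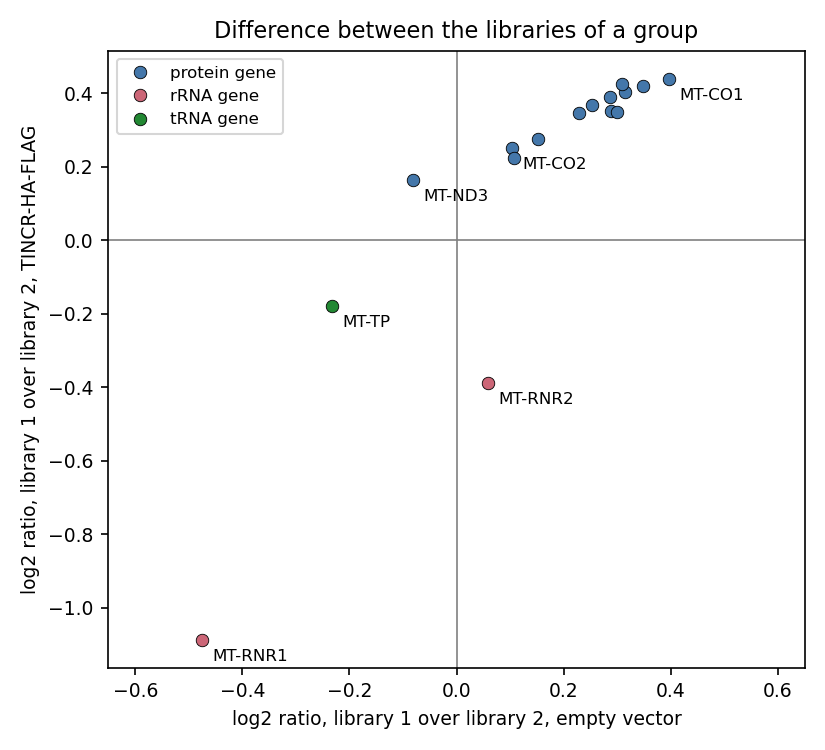
Log2 ratio of library 1 over library 2 in the empty vector group (horizontal axis) and in the TINCR-HA-FLAG group (vertical axis), with 1 point per mitochondrial gene and colours for RNA class. The protein genes lie together at values up to 0.44, positive except for MT-ND3 in the empty vector group (-0.08). MT-RNR1 lies at -0.48 and -1.09.

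Each protein gene was also expressed as a percent of the counts of all 13, which does not depend on how libraries are scaled. Such shares sum to the whole, so a gene that lies higher forces others lower. The shares therefore compare the genes with each other and give no direction for a gene's own level. MT-ND1 took 7.30% and 7.26% with the empty vector, against 6.43% and 6.498% with TINCR-HA-FLAG. The difference in mean share was -0.812 percentage points, beside standard deviations of 0.030 and 0.046 within the groups. MT-ND5 took 10.30% and 10.05% and then 9.65% and 9.41%, and MT-ND4L took 1.29% and 1.34% and then 1.20% and 1.21%. These 3 complex I genes lay lower in both TINCR-HA-FLAG libraries than in both empty vector libraries.

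In 4 genes the share lay higher in both TINCR-HA-FLAG libraries. MT-CO2 took 14.04% and 15.9% with the empty vector, against 15.9% and 17.3% with TINCR-HA-FLAG, so its second empty vector library (15.86%) came close to the first TINCR-HA-FLAG library (15.94%). MT-CO3 took 8.64% and 8.596% and then 9.09% and 8.93%. MT-CYB took 5.16% and 5.09% and then 5.36% and 5.43%. The fourth was MT-ATP6, with 5.44% and 5.55% and then 5.595% and 5.59%. In these 7 genes the groups did not overlap, each at an exact two-sided permutation p = 0.333, the smallest that 2 against 2 allows. The same measure, counts over the mitochondrial protein gene total, did not overlap in 32.0% of all genes tested, beside 7 of 13 here. These are not like for like. The total differed between the libraries of a group as the 13 genes themselves did, whereas most other genes did not differ in that way. No excess over the background can be read from the 7 of 13. The MT-CO1, MT-ND2, MT-ND3, MT-ND4, MT-ND6 and MT-ATP8 shares overlapped.

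Ratios of gene pairs within a library leave out that sum, but they are not separate from the shares. Where the numerator's share lay higher and the denominator's lower, groups that are apart follow by arithmetic. That holds for MT-CO2 and MT-CO3 over MT-ND1, MT-CYB over MT-ND5 and MT-ATP6 over MT-ND4L. Of 6 pairs computed, 5 did not overlap between the groups, with TINCR-HA-FLAG higher. How often other pairs of genes lie apart was not computed. MT-CO2 per count of MT-CO1 overlapped, at 0.687 and 0.841 with the empty vector, against 0.820 and 0.934 with TINCR-HA-FLAG (exact permutation p = 0.667). MT-CO2 per count of MT-ND1 was 1.92 and 2.19, against 2.48 and 2.66, and MT-ATP6 per count of MT-ND4L was 4.21 and 4.14, against 4.67 and 4.598. In both of these pairs the groups were apart. There were 1.184 and 1.185 counts of MT-CO3 per count of MT-ND1 with the empty vector, against 1.41 and 1.37 with TINCR-HA-FLAG. MT-CYB had 0.501 and 0.507 counts per count of MT-ND5, its neighbour beyond MT-ND6, and then 0.556 and 0.577. MT-ND6 had 0.224 and 0.225 counts per count of MT-ND5 and then 0.245 and 0.241. In these last 3 pairs the libraries of the empty vector group nearly coincided and both TINCR-HA-FLAG libraries lay above them. The 6 pairs were chosen after the shares were seen, and each of the 5 reaches the exact permutation p of 0.333 that is the smallest possible, so they are described and not called. Across the 13 genes, the log2 fold change had a Pearson correlation of -0.32 with gene length and of -0.23 with GC content, as a description only.

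**Figure D4:**
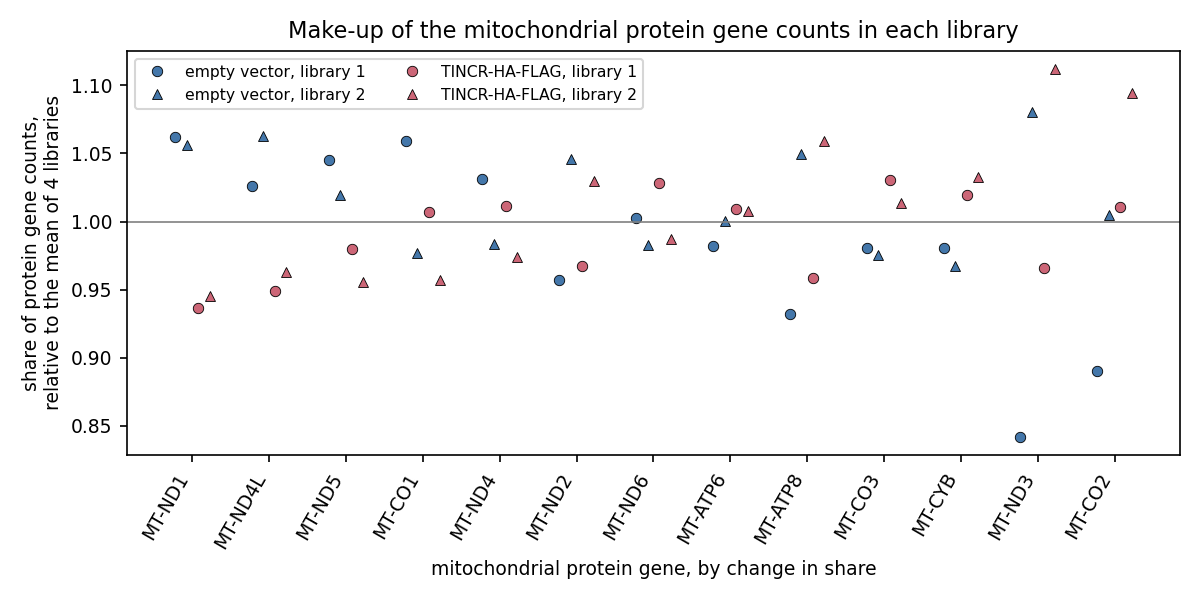
Share of each protein gene in the mitochondrial protein gene counts, divided by its mean over the 4 libraries, with 1 point per library (blue, empty vector; red, TINCR-HA-FLAG; circles, library 1; triangles, library 2). MT-ND1, MT-ND4L and MT-ND5 lie lower in both TINCR-HA-FLAG libraries, and MT-CO2, MT-CO3, MT-CYB and MT-ATP6 lie higher in both.

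RNA classes kept no steady difference between the groups. Ribosomal RNA made up 0.0607% and 0.0759% of the mitochondrial counts with the empty vector, against 0.0426% and 0.0797% with TINCR-HA-FLAG. Transfer RNA made up 0.00584% and 0.00815% and then 0.00546% and 0.00802%. Both classes were lower in library 1 than in library 2 of either group, and the groups overlapped (exact two-sided permutation p = 1.0 and 0.667). There were 5.03 and 3.47 counts of 16S per count of 12S with the empty vector, against 4.73 and 2.91 with TINCR-HA-FLAG, which overlapped as well (p = 0.667, exact permutation). The ratio was likewise higher in library 1 of either group. The differences between group means turned for protein, ribosomal and transfer RNA without the second empty vector library or the first TINCR-HA-FLAG library. The difference in the 16S to 12S ratio turned without the first empty vector library or the second TINCR-HA-FLAG library.

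Nuclear copies of mitochondrial genes, pieces of mitochondrial DNA inserted into chromosomes, can share reads with the mitochondrial genes. The table has 404 rows with the symbols of such copies, of which 305 had no count and 24 passed the filter. Together they took 0.138% to 0.196% of all counts. The 3 with the highest counts lie in a single block on chromosome 1 (GRCh38). MTCO2P12 (chromosome 1, 632757 to 633438) is 97.95% identical to MT-CO2 over 684 aligned columns. MTCO1P12 (631074 to 632616) is 98.6% identical to MT-CO1, and MTATP6P1 (633696 to 634376) is 98.5% identical to MT-ATP6.

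MTCO2P12 had 5495 and 5957 counts with the empty vector, against 8823 and 10780 with TINCR-HA-FLAG. The log2 fold change of 0.52 had an SE of 0.11 (edgeR adjusted p = 0.088), and both TINCR-HA-FLAG libraries lay above both empty vector libraries. It was called by DESeq2 (adjusted p = 0.0058) and with library totals in place of TMM (edgeR adjusted p = 0.038). Without 1 library at a time its edgeR adjusted p lay between 0.10 and 0.73. MTCO1P12 had a log2 fold change of 0.29 and MTATP6P1 of 0.28 (SE 0.13 and 0.12, adjusted p = 0.49 and 0.48 in edgeR). None of the 24 was called by edgeR, against 0.549% of all genes tested, and 7 had an unadjusted p under 0.05, against 10.2%. Of the 24, DESeq2 called MTCO2P12 only, against 1% of all genes tested. The counts of MTCO2P12 came to 2.43% and 2.86% of those of MT-CO2 with the empty vector and to 2.68% and 3.23% with TINCR-HA-FLAG. In each group this share was higher in library 2, and the groups overlapped. With so near an identity, counts of a copy and of its mitochondrial gene are uncertain as separate measures. Adding all copies to the 37 genes gave mitochondrial shares of 9.58%, 7.72%, 11.6% and 8.83% in the same order of libraries.

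**Figure D5:**
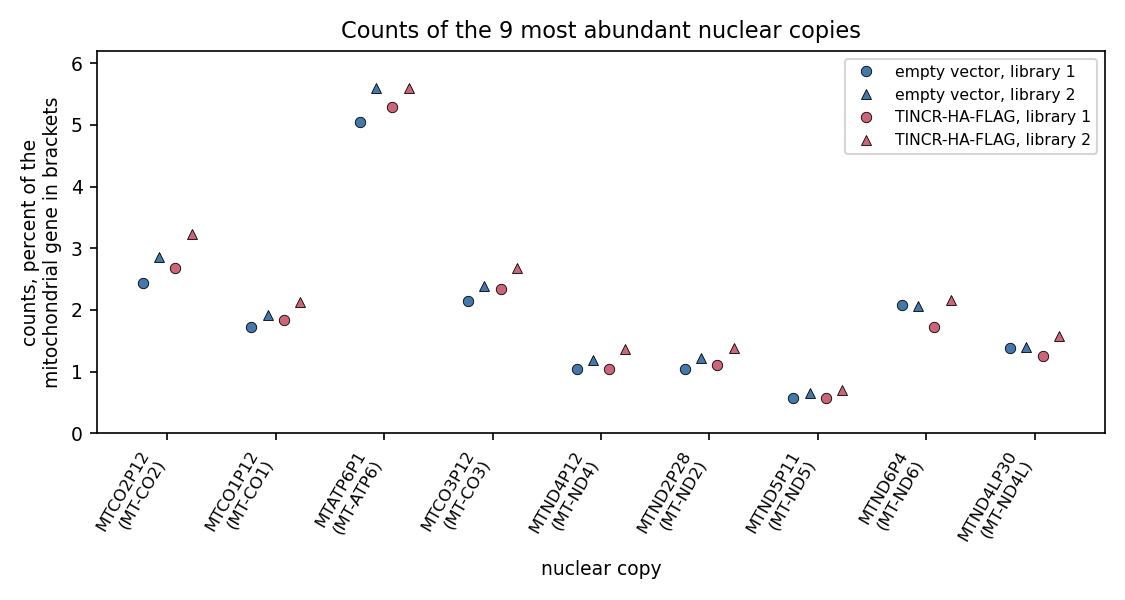
Counts of the 9 most abundant nuclear copies as a percent of the counts of the mitochondrial gene named in brackets, with 1 point per library (blue, empty vector; red, TINCR-HA-FLAG; circles, library 1; triangles, library 2). MTATP6P1 stands highest at 5.04% to 5.60%, and MTCO2P12 lies at 2.43% to 3.23%.

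Nuclear genes that make or partner the mitochondrial transcripts did not share the positive sign of the messenger RNAs. Over 8 lists, 229 of 230 symbols had a row and 227 genes were tested. None was called by edgeR, against 0.549% of all genes tested, or by DESeq2, against 1%. An unadjusted edgeR p under 0.05 was found in 25, near the 10.2% of all genes tested. A negative log2 fold change was found in 156 of the 227, against 49.3% of all genes tested, with a median of -0.07 beside 0.004. Single symbols in each list are named as those with the highest mean CPM.

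Genes of mitochondrial transcription and DNA maintenance, 17 tested, had a median log2 fold change of 0.0004. POLG, the catalytic subunit of the mitochondrial DNA polymerase, had 149.8 ± 10.9 CPM in the empty vector group and 192 ± 0.684 in the other (mean ± SD of 2 libraries each, edgeR adjusted p = 0.23). POLG also had the highest log2 fold change of this list, 0.36, and the lowest in the list was -0.49. Genes of RNA processing, modification and decay, 34 tested, had a median of -0.08. LRPPRC, which stabilises mitochondrial messenger RNAs, had 306 ± 8.75 and 282 ± 2.26 CPM, with an edgeR adjusted p = 0.79. Mitochondrial ribosomal proteins, which assemble with the 12S and 16S RNAs, had a median of -0.08 over 79 tested, with 59 negative. MRPL11 among them had 180.4 ± 18.7 and 189.5 ± 23.3 CPM. The list of mitochondrial aminoacyl-tRNA synthetases, which charge the transfer RNAs, also holds the amidotransferase subunits QRSL1, GATB and GATC. This list had a median of -0.13, with 18 of 22 negative. KARS1, which serves both the cytosol and mitochondria, had 278 ± 18.2 and 245 ± 25.8 CPM. The groups did not overlap for POLG, which lay higher, or for LRPPRC and KARS1, which lay lower with TINCR-HA-FLAG. For KARS1 the nearest libraries of the groups were at 265 and 263 CPM. Over all lists, 77 of the 227 genes tested did not overlap, against 39.6% of all genes tested in either direction. Of the 77, 20 lay higher and 57 lower, against 4081 higher and 3353 lower among the 18771 genes tested.

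Nuclear-encoded subunits were set beside the mitochondrial subunits of the same complex. In complex I the 37 nuclear subunits had a median log2 fold change of -0.05, beside 0.20 for the 7 mitochondrial ones. In complex III the 9 nuclear subunits had a median of -0.08, beside 0.29 for MT-CYB. In complex IV the medians were -0.07 over 11 nuclear subunits and 0.28 over 3 mitochondrial ones, and in complex V -0.01 over 18 and 0.24 over 2. The difference between nuclear and mitochondrial subunits was not tested. NDUFV1, which holds the NADH site of complex I, had 364 ± 7.20 and 364 ± 36.8 CPM in the same order of groups. UQCRC2, a core subunit of complex III, had 216 ± 0.628 and 202 ± 15.8 CPM. COX4I1 of complex IV had 135 ± 8.09 and 128 ± 13.5 CPM, and ATP5F1B, the catalytic subunit of complex V, had 464 ± 39.5 and 399.6 ± 34.6. UQCRC2 and ATP5F1B did not overlap between groups and lay lower with TINCR-HA-FLAG. They are among the 77 of 227 list genes that did not overlap, against 39.6% of all genes tested. None of these 4 genes passed the test (edgeR adjusted p from 0.62 to 0.997).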

How the data were processed

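Values are raw read counts for each Ensembl gene, deposited by the authors as a single table whose columns are libraries. The submitters' processing notes list, without roles, the build GRCh38 and the tools DESeq2 1.32.0, STAR 2.7.9a and bcl2fastq 2.20.0.422. Per the labels' protocols, total RNA came from an RNeasy kit, and the library kit was NEBNext Ultra RNA. For the counter, its strand setting and its annotation, nothing is given in the sources used here. A further 12 library columns of the table fit none of the 4 samples and were left unused. Among them 4 are named for FaDu with the same constructs and higher replicate numbers, so n = 2 per group is that of the samples described here. Columns were matched to samples on cell line, construct and replicate number.

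Positions, strands and sequences came from GENCODE release 29 (GRCh38) by Ensembl identifier (58381 of 60649 rows matched), and symbols from a reference table (60507 matched). Counts were filtered with filterByExpr (18771 genes left), scaled by TMM and tested with edgeR 4.0.16 (quasi-likelihood, robust, non-legacy) in R 4.3.3, with Benjamini-Hochberg adjustment over all genes and a threshold of 0.05. Standard errors are the log2 fold change over the root of F. Shares were compared by an exact two-sided permutation test over libraries. Copies were aligned locally with Biopython 1.88. The fits were tested on simulated data. Alternatives were DESeq2 1.42.0, other scalings, filters and dispersion estimates, TINCR left out, the replicate number as a block and each library left out. The members and gene lists were chosen with earlier results of these data known. All 37 members are accounted for. Of each nuclear list, called members or else the most expressed were named, and of the copies the 3 most expressed. 1 listed symbol, FASTKD4, had no row.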

Additional observations from a re-analysis of the deposited data

How the results depend on the processing

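No member was called under any alternative except the replicate block, which called 11 of the 16, all higher (MT-ND1, MT-ND4L, both ribosomal RNAs and MT-TP were not called). The block raised all calls from 103 to 2633, which is 14% of the 18771 genes tested. List calls rose from 0 to 37 of 227 (5 higher, 32 lower) and copy calls from 0 to 7 of 24 (all higher). The blocked fit keeps 1 residual degree of freedom, and the labels give the replicate number no meaning. Deviations of same-numbered libraries had a correlation of 0.37 over 18771 genes and 0.89 over the 16 members. All calls were 188 in DESeq2, 53 with no filter on low counts and 124 to 386 with 1 library left out. Copy calls were 1 in DESeq2, 1 with library totals and 0 to 2 with 1 library left out, and list calls were 1 to 5. With 1 library left out, the spread of the lone library is taken from the other group.

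Leaving out 1 library turned some directions, and the cause was not tested. The log2 fold change ran from -0.44 to 0.66 for MT-RNR1, -0.24 to 0.16 for MT-RNR2, -0.13 to 0.21 for MT-ND1, -0.064 to 0.36 for MT-CO1, -0.084 to 0.25 for MT-ND4L, -0.022 to 0.39 for MT-ND4 and -0.083 to 0.31 for MT-ND5. In percentage points of the mitochondrial counts the difference ran from -0.0124 to 0.0272 for protein genes, -0.0257 to 0.0114 for ribosomal RNA, -0.00153 to 0.00102 for transfer RNA and -0.0122 to 0.0805 for light-strand transcripts. For the 16S to 12S ratio it ran from -1.34 to 0.476. Other alternatives kept every direction of the 16 genes and the shares. In the shares the replicate block gives the same mean difference, 1.52 percentage points for the mitochondrial share. Depth limits the precision for the 12S RNA and MT-TP, with as few as 154 and 92 counts in a library.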
